A study of Mus musculus with 6 samples.

Results

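Genes known as markers of the mural cells of blood vessels were followed across microglial RNA-seq libraries of mice with and without Mir137. Each was found in the count table by its symbol: 6 genes of the contractile apparatus (Acta2, Tagln, Myh11, Cnn1, Myl9 and Des) and 4 surface or signalling genes of pericytes and smooth muscle (Pdgfrb, Rgs5, Cspg4 and Notch3). These are 10 of 24411 rows, and all 10 were among the 13403 genes that passed the filter on low counts. The RNA came from microglia, the macrophages that live in the brain, taken from C57BL/6J mice aged 8 weeks. There were 3 libraries of Mir137 knockout animals (gKO) and 3 of wild-type animals (gWT). The labels name no other allele or agent in either genotype and do not describe how the Mir137 allele was made. The design text gives n = 4 adult mice without saying which animals went into which library. The p-values below therefore reflect how far these libraries differ among themselves, and that spread may be technical.

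Mural cells wrap the endothelial tube of brain vessels. On arteries and arterioles they are smooth muscle cells, which shorten when a myosin motor pulls on smooth muscle actin, and on capillaries they are pericytes, which carry little contractile protein. Endothelial cells recruit them by secreting PDGF-B, which binds the receptor encoded by Pdgfrb, and keep arterial smooth muscle mature through the Notch ligand Jagged1, which activates Notch3. Microglia are not known as a source of smooth muscle actin or myosin. The microRNA missing from gKO is miR-137-3p, whose mature sequence (RefSeq, GRCm38.p6) is shown because its seed, bases 2 to 8 in capitals, sets which sites it can pair with:
mmu-miR-137-3p: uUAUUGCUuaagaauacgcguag

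The libraries held 14603884 to 17652976 counts. Mir137 itself had 0 counts in all 6 libraries, and its precursor is poorly captured by such libraries, so it checks nothing about the labels. The 8 microglial markers, among them Siglech and P2ry12, summed to 37917 to 42919 CPM (each count scaled to the size of its library, with TMM factors), whereas the 10 mural genes summed to 68.9 to 337 CPM. Markers of the labelled cell type were thus abundant, and the mural transcripts made up a small share of every library. One library stood apart: gKO replicate 3 lay at 91.5 on the first principal component against -37.7 to -3.45 for the others. Across 12922 genes its log2 level relative to the mean of all libraries had a Spearman rho of -0.53 with transcript length, against -0.03 to 0.31 elsewhere, so each of the 10 genes is also given without it.

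All 10 genes were lower in gKO on average, by 1.73-fold (Pdgfrb) to 4.05-fold (Cspg4). In 9 of them every gKO library lay below every gWT library, a pattern that 11.3% of all tested genes showed in this direction. The median log2 fold change was -1.36, against 0.01 over all tested genes. Only Acta2 fell by the edgeR quasi-likelihood test at a Benjamini-Hochberg adjusted p under 0.05, 1 of 10 genes where 0.231% of all tested genes were called lower, and 0 of the 10 rose, against 0.395% called higher. At an unadjusted edgeR p under 0.05, 9 of the 10 were lower, against 5.74% of tested genes. A log2 fold change of -1 or less was found in 9 of the 10 and in 6.66% of tested genes. In bulk RNA, fewer mural cells in the preparation and less RNA per mural cell cannot be told apart.

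**Figure D1:**
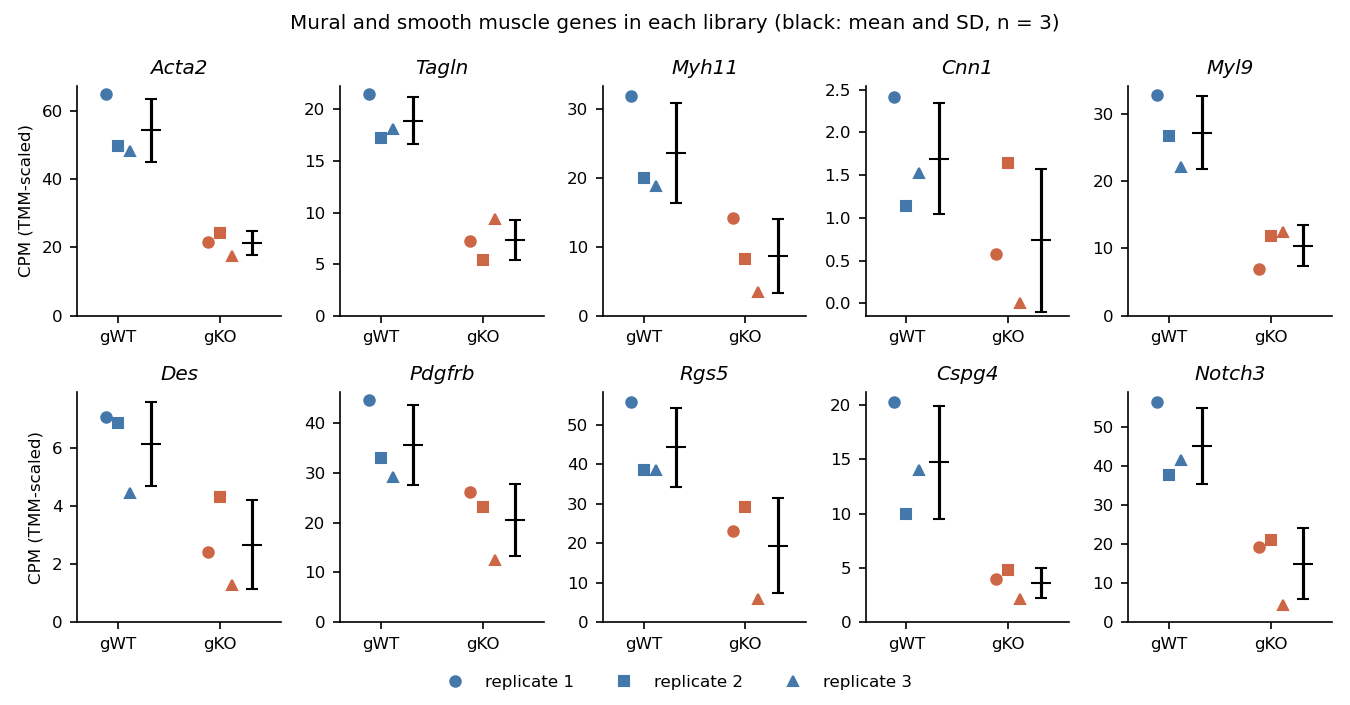
TMM-scaled CPM (vertical axis, linear and different for each gene) of the 10 mural and smooth muscle genes in 3 gWT (blue) and 3 gKO (orange) libraries, with symbols for the replicate number and black bars for mean and SD. The gKO points lie below all gWT points in 9 panels, Cnn1 being the exception, and gKO replicate 3 (triangle) is the lowest gKO library in 8 panels but the highest for Tagln and Myl9.

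Acta2 encodes the actin of smooth muscle thin filaments (chromosome 19, 34241090 to 34255590, minus strand, GRCm38). It was measured at 21.7, 24.3 and 17.4 CPM in gKO replicates 1, 2 and 3 and at 64.8, 49.7 and 48.3 CPM in the gWT replicates. The lowest gWT library was 1.98 times the highest gKO library, so the groups were well apart. Acta2 fell from 54.2 ± 9.18 to 21.1 ± 3.51 CPM (SD, n = 3 each), a log2 fold change of -1.36 (with an SE of 0.20, adjusted p = 0.0312 by edgeR). Its call depended on single libraries: without gKO replicate 3 the edgeR adjusted p was 0.000272, and without any other single library it lay between 0.0815 and 0.234, with the log2 fold change between -1.47 and -1.21. Leaving out any 1 of those other libraries gave only 0 or 1 genes called lower over the whole table.

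Transcription of contractile genes is driven by serum response factor bound to the CArG box, a 10-base element. A box was searched for in the 250 bases before each RefSeq start, allowing 1 of its 6 inner bases to be other than A or T. The pattern is its own reverse complement, so 1 search covers both strands. Windows were matched for 7 of the 10 genes, and 2 of them, Acta2 and Myl9, held boxes, against 8.59% of 32851 promoter windows. Each gene had 2 boxes, of which 1 in Myl9 had only A and T inside, a form found in 1.47% of windows. The boxes are shown in capitals with 10 bases on either side (RefSeq, GRCm38.p6), to show the element by which these contractile genes are known to be controlled together. A match is a description of these letters and not a measured binding site. Both Acta2 boxes lie within the first exon of its longest GENCODE M21 transcript, which starts upstream of the RefSeq one. In order, the windows are chr19:34255438-34255467 and chr19:34255388-34255417 (minus strand) and chr2:156775293-156775322 and chr2:156775355-156775384 (plus strand), with the boxes starting 84, 34, 161 and 99 bases before the RefSeq start:
Acta2 upstream box: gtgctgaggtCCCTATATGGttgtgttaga
Acta2 downstream box: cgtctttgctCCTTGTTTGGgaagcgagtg
Myl9 upstream box: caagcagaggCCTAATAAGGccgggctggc
Myl9 downstream box: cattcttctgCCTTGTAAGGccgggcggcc

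Myl9 encodes a regulatory light chain of smooth muscle myosin (chromosome 2, 156775420 to 156781658). It had 6.93, 11.9 and 12.4 CPM in gKO and 32.8, 26.6 and 22.1 CPM in gWT (log2 fold change -1.39 with an SE of 0.28, adjusted p = 0.0985 by edgeR). Tagln, whose product transgelin binds actin filaments (chromosome 9, 45929619 to 45936058), had 7.27, 5.42 and 9.33 CPM in gKO and 21.4, 17.2 and 18.04 CPM in gWT (log2 fold change -1.36 with an SE of 0.26, adjusted p = 0.0811 by edgeR). The lowest gWT library was 1.78 times the highest gKO library for Myl9 and 1.84 times for Tagln, so the groups did not overlap in either gene, although neither passed the threshold. In both, gKO replicate 3 was the highest of the gKO libraries, and both fell in the fit without it (edgeR adjusted p = 0.00193 for Myl9 and 0.00142 for Tagln). Tagln overlaps the gene Pcsk7 on the opposite strand, and the strand setting of the counting is not given in the sources used here. Reads from any stretch that both transcripts cover cannot be told apart without it. Only the annotated spans of the genes were compared, so the size of such a stretch is not known. Pcsk7 had means of 31.96 CPM in gKO and 27.9 CPM in gWT.

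Myh11 encodes the heavy chain of smooth muscle myosin, the motor itself (chromosome 16, 14194535 to 14291372). Its level was 14.3, 8.30 and 3.46 CPM in gKO and 31.9, 20.002 and 18.9 CPM in gWT (log2 fold change -1.44 with an SE of 0.46, adjusted p = 0.306 by edgeR). The gKO libraries were spread widely, with replicate 3 lowest, but the highest of them still lay under the lowest gWT library. Without gKO replicate 3 the log2 fold change was -1.07 (with an SE of 0.28, adjusted p = 0.0317 by edgeR). Of the 50-base stretches of Myh11 transcript, 0.400% also occur in transcripts of other genes, here the non-muscle myosins Myh9 and Myh10, and 0.352% do for Acta2.

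Des, which encodes the intermediate filament desmin (chromosome 1, 75360329 to 75368579), and Cnn1, which encodes the actin-binding protein calponin (chromosome 9, 22099216 to 22109630), had the fewest counts of the 10. Des counts were 42, 63 and 18 in the gKO libraries and 120, 120 and 76 in the gWT libraries, and its highest gKO and lowest gWT libraries, at 4.32 and 4.45 CPM, nearly met (log2 fold change -1.20 with an SE of 0.49, adjusted p = 0.430 by edgeR). Cnn1 counts were 10, 24 and 0 in the gKO libraries and 41, 20 and 26 in the gWT libraries, so its groups overlapped. Its 0 counts in gKO replicate 3 allow up to 3 counts, or 0.212 CPM, a limit that covers counting error only. Cnn1 was not called (log2 fold change -1.19 with an SE of 1.16, adjusted p = 0.782 by edgeR). The log2 fold change without gKO replicate 3 was -0.63 for Cnn1 (edgeR adjusted p = 0.750) and -0.88 for Des (edgeR adjusted p = 0.224).

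Among the signalling genes, Cspg4 had the lowest ratio of gKO to gWT. It encodes the proteoglycan NG2 of pericytes and oligodendrocyte precursors (chromosome 9, 56865033 to 56899870). Its level was 4.01, 4.80 and 2.12 CPM in gKO and 20.3, 9.94 and 13.999 CPM in gWT (log2 fold change -2.01 with an SE of 0.39, adjusted p = 0.0911 by edgeR). The lowest gWT library was 2.07 times the highest gKO library, the widest gap among the 10 genes, and without gKO replicate 3 Cspg4 fell (log2 fold change -1.75 with an SE of 0.33, adjusted p = 0.00515 by edgeR). Oligodendrocyte precursors, the other cell type that carries NG2, were followed by their own markers: 9 genes summed to 22.6, 31.9 and 18.5 CPM in gKO and 24.3, 24.2 and 29.6 CPM in gWT, with overlapping groups. Of their 6 tested members, 3 were lower and 3 higher, with 0 called by edgeR and 0 at an unadjusted p under 0.05.

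Notch3 encodes the receptor by which mural cells read endothelial Jagged1 (chromosome 17, 32120820 to 32166852). It had 19.4, 21.2 and 4.52 CPM in gKO and 56.4, 37.8 and 41.5 CPM in gWT (log2 fold change -1.58 with an SE of 0.48, adjusted p = 0.273 by edgeR). The gKO replicates 1 and 2 were close together, replicate 3 was far lower, and all lay below gWT. With the other 5 libraries alone Notch3 fell, by 1.17 on the log2 scale (with an SE of 0.18, adjusted p = 0.00129 by edgeR).

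Rgs5 encodes a GTPase-activating protein that shuts off G protein signalling and is a classic pericyte marker (chromosome 1, 169655501 to 169695813). It had 23.1, 29.2 and 5.94 CPM in gKO and 55.7, 38.6 and 38.5 CPM in gWT (log2 fold change -1.19 with an SE of 0.48, adjusted p = 0.426 by edgeR). Again gKO replicate 3 was far below the other gKO libraries, and without it Rgs5 fell by 0.77 (log2 with an SE of 0.18, adjusted p = 0.0198 by edgeR). The complement of the miR-137-3p seed, AGCAATA, was searched for in the 3′ UTR of the longest coding transcript of each of the 10 genes and was found in that of Rgs5 alone, at base 1051 of 3473. Such a site occurs in 10.3% of 12550 tested genes with a 3′ UTR, whose median UTR length is 1182 bases, and the other 9 genes have UTRs of 496 to 1673 bases. The site is shown in capitals with its flanks, since it is the only match to these 7 bases in the 10 UTRs searched. Coding sequence, 5′ UTRs, other isoforms and shorter matches were not searched:
Rgs5 site: tttaaatttagAGCAATAtatatacataca

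Before the last of the signalling genes, the family of Rgs5 was followed in the same libraries. Of 10 other RGS genes tested, 1 rose and 0 fell: Rgs1, a regulator of chemokine receptor signalling in leukocytes, rose from 96.1 ± 14.1 to 255 ± 75.8 CPM (SD over n = 3; log2 fold change 1.41, edgeR adjusted p = 0.0385). The median of these 10 was -0.09. Rgs4, which pericytes also express, had 2.68 ± 1.92 CPM in gKO against 9.03 ± 3.36 CPM in gWT and was not called (edgeR adjusted p = 0.275); it was singled out after its values were seen.

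Pdgfrb encodes the receptor that holds pericytes to the endothelium (chromosome 18, 61045150 to 61085061). Its level was 26.2, 23.2 and 12.4 CPM in gKO and 44.6, 32.9 and 29.2 CPM in gWT (log2 fold change -0.79 with an SE of 0.30, adjusted p = 0.384 by edgeR). The groups did not overlap, but this was the smallest difference of the 10, and it was not called without gKO replicate 3 either (log2 fold change -0.54 with an SE of 0.19, adjusted p = 0.0952 by edgeR). Its ligand gene Pdgfb, which microglia also express, had 163 ± 26.2 CPM in gKO against 176 ± 9.39 CPM in gWT (SD over n = 3; log2 fold change -0.11, edgeR adjusted p = 0.842). The other ligand genes had log2 fold changes of -0.83 (Pdgfa), 0.29 (Pdgfc) and -1.40 (Pdgfd), and the alpha receptor Pdgfra, which marks fibroblasts and oligodendrocyte precursors, had -0.19. EdgeR called 0 of these 5 genes, with 1, Pdgfd, at an unadjusted p under 0.05, and DESeq2 called 0 as well.

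The count of calls depended on one library and on the test. Without gKO replicate 3, edgeR called 7 of the 10 genes lower, all but Cnn1, Des and Pdgfrb, where 3.82% of 13814 tested genes were called lower. DESeq2 with all 6 libraries called 5 (Acta2, Tagln, Myl9, Cspg4 and Notch3), against 1.57% of tested genes. The same 5 are in the authors' deposited table of 201 genes lower in gKO, and 0 of the 10 are in the authors' deposited table of 75 higher genes. limma-voom with sample quality weights, which gives less weight to libraries that deviate, called 4, against 1.13% of tested genes. With the length trend of every library taken out, an alternative added after the data were examined, edgeR called 5 where 0.933% of genes were called lower. Without any 1 of the other 5 libraries, edgeR called 0 of the 10 genes, with 5 to 9 of them lower at an unadjusted p under 0.05. Those fits called only 0 or 1 genes lower over the whole table, of 13741 to 13822 tested.

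**Figure D2:**
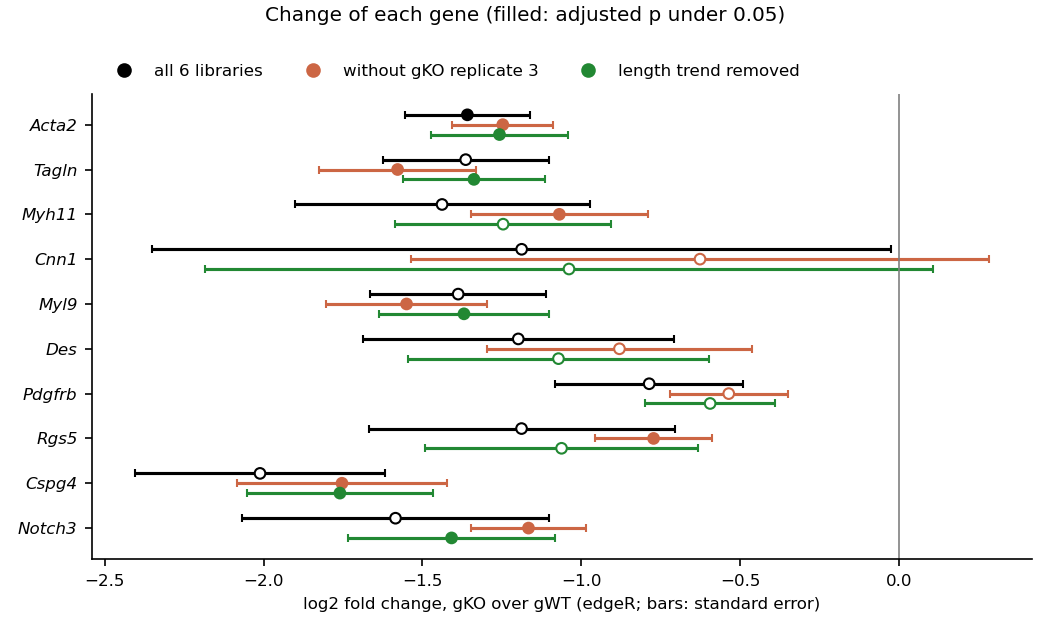
Log2 fold change of gKO over gWT (horizontal axis, bars: standard error) for the 10 genes in edgeR, with all 6 libraries (black), without gKO replicate 3 (orange) and with each library's length trend removed (green). All 30 estimates are below 0, and filled points, which mark an adjusted p under 0.05, number 1, 7 and 5.

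The position of gKO replicate 3 differed from gene to gene. Against the mean of the other gKO libraries its log2 CPM (prior count 2) was higher for Tagln (0.56) and Myl9 (0.45), the shortest transcripts at 1595 and 1128 bases. It was lower by 0.40 for Acta2, and the difference was -0.98 for Pdgfrb, -1.01 for Cspg4, -1.26 for Des, -1.62 for Myh11, -2.11 for Rgs5, -2.13 for Notch3 and -3.18 for Cnn1. Over the 10 genes, which share these libraries, Spearman's rho with transcript length was -0.53, and over 12922 tested genes it was -0.55. The median difference was 0.51 in the 4522 tested genes under 2500 bases and -0.46 in the 4546 genes of 4000 bases or more. All 5 of the mural genes of that length, Rgs5, Notch3, Myh11, Pdgfrb and Cspg4, lay further below the other gKO libraries than the median gene of 4000 bases or more. The 6 contractile genes made up 63.7% of the mural sum in gKO replicate 3, against 42.2% and 41.6% in the other gKO libraries and 47.6% to 50.5% in gWT. The part of the length trend in each gene's result was tested only by the fit without it, in which all 10 log2 fold changes were still negative (median -1.25, where the median of all genes was 0.13).

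**Figure D3:**
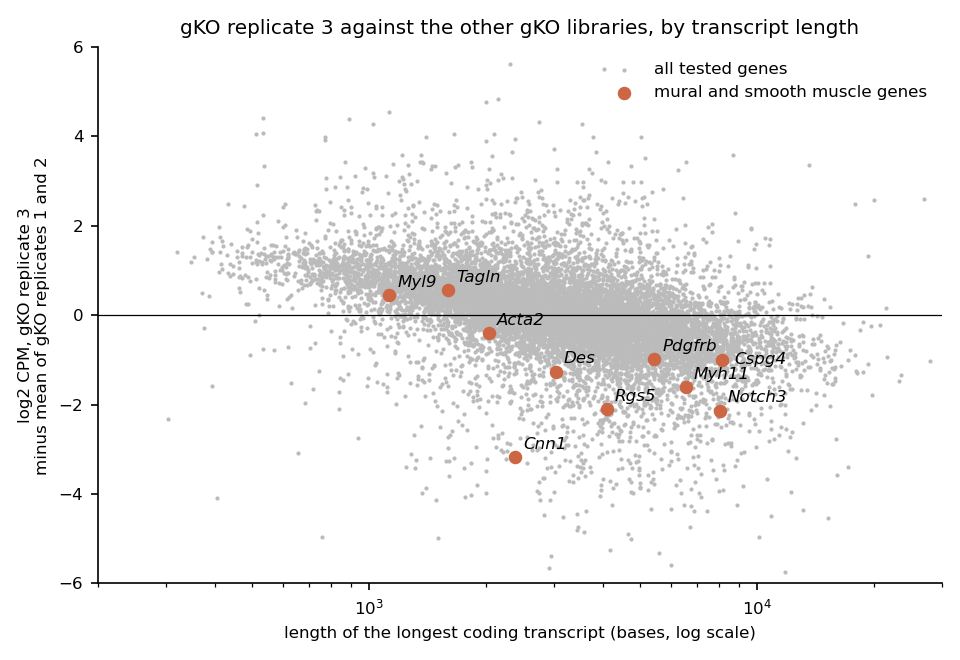
Difference in log2 CPM between gKO replicate 3 and the mean of gKO replicates 1 and 2 (vertical axis) against the length of the longest coding transcript (horizontal axis, log scale), for all tested genes with a length (grey) and the 10 mural genes (orange). Grey points slope down with length (Spearman rho -0.55), Tagln and Myl9 lie above 0, and Cnn1, Notch3 and Rgs5 lie furthest below it.

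Per length of transcript, 3 contractile genes led in gWT. In gWT the order of mean CPM per kilobase was Acta2 (26.7), Myl9 (24.1), Tagln (11.8), Rgs5 (10.8), Pdgfrb (6.56), Notch3 (5.64), Myh11 (3.61), Des (2.02), Cspg4 (1.81) and Cnn1 (0.711). Neighbours whose gWT libraries overlapped were Acta2 and Myl9, Tagln and Rgs5, Pdgfrb and Notch3, Notch3 and Myh11, and Des and Cspg4, while the steps from Myl9 to Tagln, Rgs5 to Pdgfrb, Myh11 to Des and Cspg4 to Cnn1 were free of overlap. In gKO the order was the same except that Rgs5 (4.74) came before Tagln (4.60), and every pair of neighbours overlapped. These levels rest on the longest annotated coding transcript, which need not be the one expressed.

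Of 24 other listed genes of the contractile apparatus and its control, 21 were tested, 1 fell and 0 rose, 20 had a negative fold change, and the median log2 fold change was -0.50. Mylk, the kinase that activates smooth muscle myosin through its regulatory light chain, fell from 23.8 ± 1.23 to 9.29 ± 1.77 CPM (SD over n = 3; log2 fold change -1.36 with an SE of 0.21, adjusted p = 0.0383 by edgeR). Cald1, which encodes the actin-binding protein caldesmon, had a log2 fold change of -0.99 (edgeR adjusted p = 0.185) and fell without gKO replicate 3 (-0.89, edgeR adjusted p = 0.0287). The transcription factors upstream of these genes, which many cell types express, had small differences: -0.12 for Srf, -0.12 for its coactivator Mrtfa and -0.32 for Mrtfb. Without any 1 library other than gKO replicate 3, edgeR called 0 of these genes, and likewise 0 of the RGS and Notch lists. Those fits called 0 or 1 genes lower and 0 to 4 higher over the whole table. The smooth muscle coactivator Myocd had a mean of 0.567 CPM in gWT and 0 counts in each gKO library, and did not pass the filter.

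**Figure D4:**
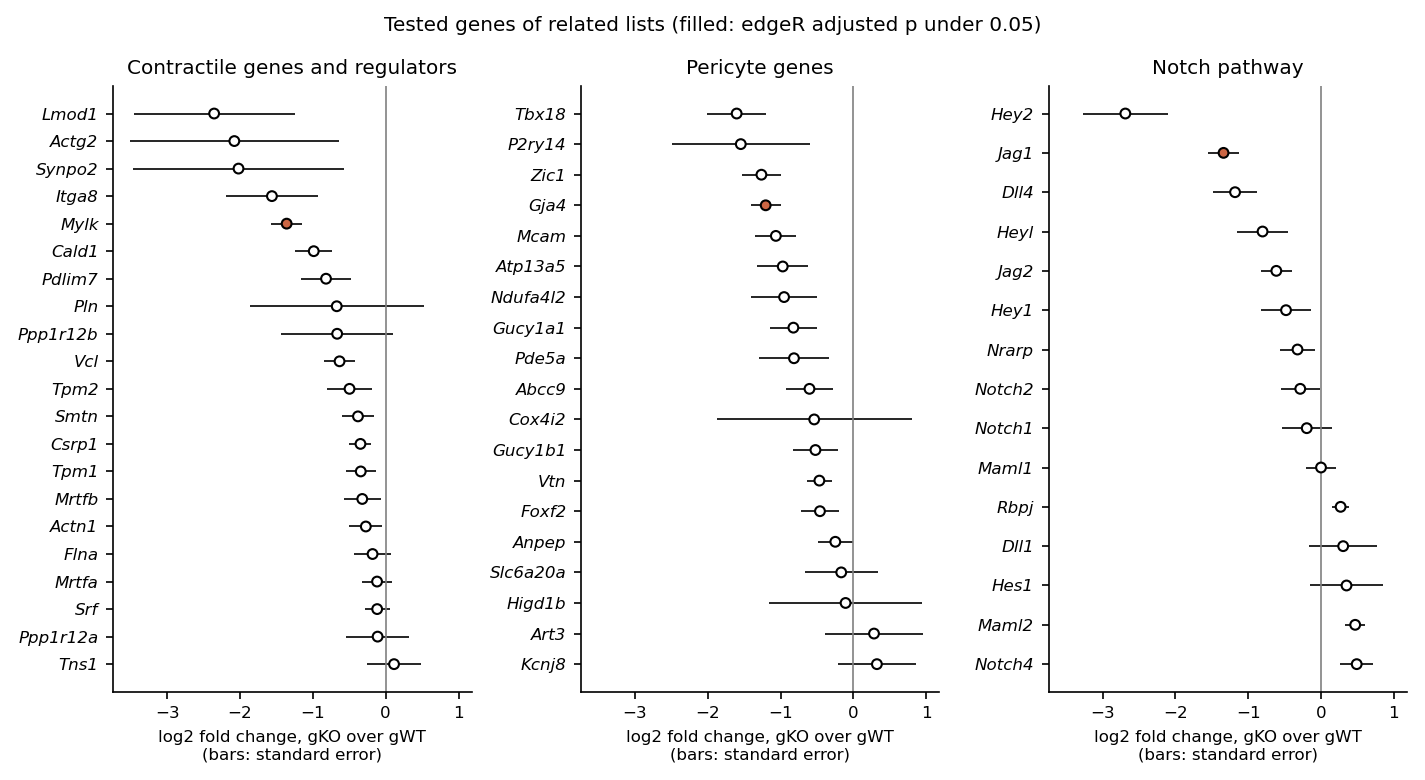
Log2 fold change of gKO over gWT (horizontal axis, bars: standard error) of every tested gene of 3 related lists, each row being 1 gene, with filled points at an edgeR adjusted p under 0.05. One gene is filled in each panel, Mylk, Gja4 and Jag1, and most of the other points lie to the left of 0.

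Non-muscle relatives of the 10 genes, many of which microglia themselves use, formed a list of 19 tested genes. Their median log2 fold change was -0.13, with 0 called by edgeR or DESeq2, and 4 at an unadjusted edgeR p under 0.05. The cytoplasmic actins Actb and Actg1 had log2 fold changes of 0.24 and 0.38 where Acta2 had -1.36. Tagln2 had -0.02 where Tagln had -1.36, and Myl12a and Myl12b had -0.03 and 0.06 where Myl9 had -1.39. Cnn2 had 0.00 and Cnn3 had -0.52 where Cnn1 had -1.19. The non-muscle myosins Myh9, Myh10 and Myh14 had -0.32, -0.65 and -0.85 where Myh11 had -1.44. Of the 19 genes, 14 had a negative and 5 a positive fold change. The intermediate filament gene Vim had -0.41 (edgeR adjusted p = 0.282). Without gKO replicate 3, edgeR called 3 of the 19 higher, Actb and Actg1 among them, and 3 lower, which were Vim, Myl12a and Myl6. Over the whole table that fit called 551 of 13814 tested genes higher and 528 lower.

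The other pericyte genes were 20 in number, of which 19 were tested, 1 fell and 0 rose, 17 were negative, and the median was -0.60. Gja4, a connexin of arterial endothelium and mural cells, fell from 36.2 ± 6.66 to 15.7 ± 2.18 CPM (SD over n = 3; log2 fold change -1.20, edgeR adjusted p = 0.0495). This call, the only one in the list, was lost with RLE scaling, with limma-voom, with the replicate number as a block and without any 1 library other than gKO replicate 3. Among markers of capillary pericytes, Vtn, a secreted pericyte protein, had 37.3 ± 2.06 CPM in gKO against 51.5 ± 9.78 CPM in gWT (log2 fold change -0.47, edgeR adjusted p = 0.380), and the potassium channel genes Abcc9 and Kcnj8 had -0.60 and 0.32. Kcnj8 was 1 of the 2 positive genes of the list. Of the tested genes not called, Tbx18 (-1.60), P2ry14 (-1.55), Zic1 (-1.26) and Mcam (-1.06) had the lowest log2 fold changes. Atp13a5 had -0.97 (edgeR adjusted p = 0.368) and Ndufa4l2 -0.95 (edgeR adjusted p = 0.505), while Anpep had -0.25, Higd1b -0.11 and Art3 0.28. In Atp13a5 and Ndufa4l2, every gKO library lay below every gWT library, as in 11.3% of tested genes. All genes of this list named here other than Gja4 were picked after their values were seen. Without gKO replicate 3, 4 of the list fell, Gja4, Tbx18, Zic1 and Mcam, where 3.82% of tested genes were called lower.

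In the Notch pathway, the gene of the ligand Jagged1 passed the test. Jag1 fell from 25.1 ± 3.14 to 9.92 ± 1.61 CPM (SD over n = 3; log2 fold change -1.34 with an SE of 0.22, adjusted p = 0.0398 by edgeR). The arterial ligand Dll4 had -1.18 (edgeR adjusted p = 0.182), Jag2 had -0.61 and Dll1 had 0.30. The other receptors, which microglia or endothelium carry, had -0.20 (Notch1), -0.29 (Notch2) and 0.49 (Notch4) where Notch3 had -1.58. Among target genes, the arterial factor Hey2 had 0.755 ± 0.438 CPM in gKO against 4.90 ± 0.358 CPM in gWT (log2 fold change -2.69, edgeR adjusted p = 0.117), Heyl had -0.80 and Hes1 had 0.35. In all, 1 of 15 tested genes fell and 0 rose, with a median of -0.29. Without gKO replicate 3, 4 were called lower and 2 higher, Notch4 being among the latter. In that fit 528 of 13814 tested genes were called lower and 551 higher. Of 10 genes of TGF-beta signalling, which drives mural maturation, edgeR called 0, with 4 at an unadjusted p under 0.05 and a median of -0.03, and DESeq2 called 1, Tgfb2, lower (edgeR log2 fold change -1.38, edgeR adjusted p = 0.181). In the fit without gKO replicate 3, edgeR called 3 of these 10 lower (Tgfb2, Eng and Acvrl1) and 3 higher (Smad2, Tgfbr1 and Tgfbr2), beside the same counts over the whole table.

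Summed markers of the other vessel cells were below gWT in every gKO library as well. The mural sum was 126, 134 and 68.9 CPM in gKO and 337, 241 and 237 CPM in gWT, a ratio of gWT to gKO of 2.48. Endothelial markers summed to 554, 557 and 444 CPM in gKO and 1109, 875 and 859 CPM in gWT, a ratio of 1.83, with 14 of 14 negative, a median of -0.89 and 2 that fell, the tight junction gene Cldn5 and the arterial factor Sox17. Fibroblast markers summed to 146, 142 and 141 CPM in gKO and 408, 302 and 324 CPM in gWT, a ratio of 2.41, with 9 of 9 tested negative, a median of -1.28 and 4 that fell, the collagen genes Col1a1, Col1a2, Col3a1 and Col6a1. One fibroblast marker, Dpt, was at 0 counts in every library. DESeq2 with all 6 libraries called 6 of the 14 endothelial markers and 4 fibroblast markers lower, against 1.57% of tested genes. Without gKO replicate 3, edgeR called every endothelial marker lower except Flt1, Egfl7, Emcn and Erg, against 3.82% of tested genes. The same fit called the 4 collagen genes and Dcn lower among the fibroblast markers. The mural sum was 22.7%, 24.1% and 15.5% of the endothelial sum in gKO and 30.4%, 27.5% and 27.5% in gWT, and these groups did not overlap. Relative to fibroblast markers it was 86.4%, 94.4% and 48.8% in gKO and 82.7%, 79.6% and 73.0% in gWT, and these groups overlapped. The part that these other cells have in the mural result was not tested.

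Cell types outside the vessel wall were followed in the same way. Microglial markers summed to 41589 ± 1681 CPM in gKO against 39869 ± 1725 CPM in gWT (SD, n = 3 each), with a median log2 fold change of 0.08 over 8 genes, 0 called by edgeR or DESeq2 and 0 at an unadjusted edgeR p under 0.05. Astrocyte markers summed to 286 ± 25.3 CPM in gKO against 375 ± 23.4 CPM in gWT, every gKO library being below every gWT library, with a median of -0.27 and 0 of 8 called by edgeR, where 3 had an unadjusted p under 0.05 and DESeq2 called 1, Gja1, lower. Of the markers of ependyma and choroid plexus, 7 of 7 tested had negative fold changes (median -0.79). EdgeR and DESeq2 called 0 of them, and 2 had an unadjusted edgeR p under 0.05. Their sum was 1227, 987 and 2893 CPM in gKO and 2919, 1804 and 1733 CPM in gWT. Most of it was Ttr, the transthyretin gene of choroid plexus, at 1176, 954 and 2840 CPM in gKO, so the high sum of gKO replicate 3 is that of 1 gene, named after its values were seen.

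**Figure D5:**
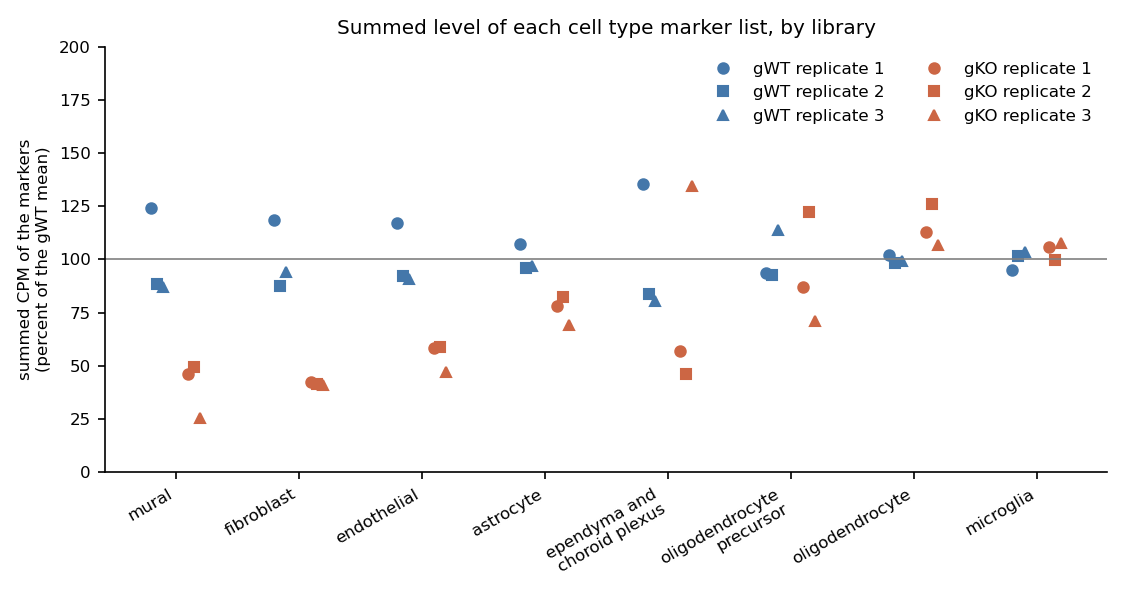
Summed CPM of each cell type marker list in each library, as a percent of the gWT mean of that list (vertical axis), with gWT in blue, gKO in orange and symbols for the replicate number. The mural sum of the gKO libraries is at 46.3%, 49.4% and 25.4% of the gWT mean, fibroblast, endothelial and astrocyte sums are below all gWT libraries too, and microglial sums overlap.

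The genes whose pattern over the 6 libraries was most like the mean of the 10 were looked up. Likeness was Pearson's r between log2 CPM values over 6 libraries, among 10333 other tested genes with a mean of at least 5 CPM, and is a description, since all genes share the same 6 libraries. The first 8 were Agrn (r = 0.999), Vwf, Lama4, Abcb1a, Ptpn14, Tie1, Col4a2 and Spice1 (0.995). Agrn (agrin), Lama4 and Col4a2 encode basement membrane proteins, Vwf the endothelial von Willebrand factor, Abcb1a the drug efflux pump of the blood-brain barrier, and Tie1 an endothelial receptor. Their log2 fold changes ran from -1.47 (Vwf) to -0.49 (Spice1), and edgeR called 0 of the 8 (adjusted p 0.161 to 0.629). Among the 10 themselves, the correlation of each gene with the mean of the other 9 was between 0.86 and 0.97 for 8 genes and lower for Myl9 (0.72) and Tagln (0.67). The difference between the groups and the position of gKO replicate 3 enter all these correlations, which are a description too.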

How the data were processed

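The authors deposited expected counts per gene symbol, not normalized, and separate tables of called genes for either direction. Per the file headers, the authors' tables give a mean normalized signal, a log2 fold change, a statistic (score) and p-values. DESeq2, RSEM, STAR 2.7.9a, GRCm38 and mm10 are listed, per the submitters' processing notes, with no roles. The sources used here give no annotation and no strand setting.

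Expected counts were rounded and tested with edgeR 4.0.16 (R 4.3.3): TMM, default filter, robust quasi-likelihood test on genotype alone, Benjamini-Hochberg adjusted p over all 13403 tested genes, threshold 0.05. SE is the absolute log2 fold change over the square root of F. CPM are TMM-scaled; ± is SD over 3 libraries. Alternatives used DESeq2 1.42.0 and limma 3.58.1. Coordinates, lengths and UTRs are from GENCODE M21 (GRCm38), 1-based; 4 listed symbols were matched by synonym. Genes were named by rule: all 10 mural genes, called members of each list (up to 4) or its 2 smallest p, PDGF and Notch ligands and receptors, and the 8 genes most alike; others serve as comparisons and were picked after their values were seen. The genes and lists were chosen with earlier results of these data known.

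Tested on counts simulated for gKO against gWT (median 13031 genes, 5 draws), the test recovered 2.69%, 26.3% and 70.6% of genes changed 1.5-, 2- and 4-fold. Of 350 calls, 5.71% were false. Noise was drawn for each gene separately, so the simulated counts held no deviating library and no length trend, unlike gKO replicate 3. Replicates differed by more than sampling noise (chi-square per degree of freedom 6.59 to 107).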

Additional observations from a re-analysis of the deposited data

How the results depend on the processing

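All 150 log2 fold changes of the 10 genes under the 15 alternatives were negative; 127 kept their side of the threshold, 6 (all Acta2) lost the call and 17 gained it. The median of the 10 lay between -1.55 and -1.12 over the alternatives. The 84 genes called in all (53 higher, 31 lower) became 414 with DESeq2, 413 with limma-voom and sample quality weights and 514 (389 higher, 125 lower) with the length trend removed, where 5, 4 and 5 of the 10 were called lower. Leaving out 1 library gave 0 to 1079 genes in all and 0 to 7 of the 10. With no filter on low counts 47 genes were lower. With the replicate number as a block, 18 genes (11 higher, 7 lower) and 0 of the 10 were called (Acta2 edgeR adjusted p = 0.0617), 9 of the 10 having an unadjusted p under 0.05. Deviations of same-numbered libraries from their group means had correlations of -0.05 to 0.05, and those of differently numbered libraries -0.10 to 0.09. With 3 libraries in each group, and gKO replicate 3 apart from the others, these values cannot decide whether the numbers pair the libraries. RLE and upper-quartile scaling, limma-voom without weights and a minimum of 1 CPM in 3 libraries called Acta2 alone of the 10. The light chain gene Myl6 had a log2 fold change of 0.04 with all libraries and -0.41 without gKO replicate 3, where it was called, and up to 0.24 (without gKO replicate 1) when another library was left out; the cause was not tested. Counts per library were lowest for Cnn1 (0 to 41) and Des (18 to 120), and the part of depth in their errors was not tested.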
